A study of Mus musculus with 13 samples.

Results

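The genes described here are 10 of the 23364 genes listed for each sample: Pecam1, Cdh5, Emcn, Kdr, Flt1, Flt4, Tek, Tie1, Lyve1 and Vegfa. They were taken by symbol, as genes of blood and lymphatic endothelium together with the ligand Vegfa. That rule uses no measured value, but it was set with earlier results of these data known. Each of the 10 symbols was present in all 13 files, and all 10 passed the filter on low values, a minimum of 1 FPKM (fragments scaled to gene length and to the reads of the sample) in any sample, as did 14650 genes in all. All groups came from C57BL/6 mice, for which no engineered allele or treatment is named, and RNA of the whole gland was sequenced. Time points before birth are named E for the embryonic day. The 3 samples of E14.5 each pooled glands of 3 animals, and the 2 samples of E16.5 and the 2 of E18.5 each pooled glands of 2 animals. A further 2 samples were taken at postnatal day 5 (P5), 2 at 4 weeks (4wk) and 2 at 12 weeks (12wk). The adult glands were from males, and the sex of the embryos and P5 pups is not given in the sources used here, so that age and sex cannot be told apart. Samples taken before birth (n = 7) were grouped as embryonic, those of P5 (n = 2) as neonatal, and those of 4wk and 12wk (n = 4) as adult.

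Blood vessels of a growing gland are lined by endothelial cells, which are held together by the adhesion proteins Pecam1 and VE-cadherin (Cdh5) and carry the sialomucin endomucin (Emcn) on their surface. Vegfa, secreted largely by the surrounding tissue, signals to endothelium through the receptor Kdr (VEGFR2), while Flt1 (VEGFR1) binds Vegfa tightly with weak signalling of its own and Flt4 (VEGFR3) serves the ligands of lymphatic growth. Tek (Tie2) is the receptor of the angiopoietins, Tie1 is its partner, and Lyve1 is a hyaluronan receptor of lymphatic endothelium that is also found on some tissue macrophages. In RNA from whole glands, fewer cells of a type and less RNA per cell cannot be told apart.

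In the mm9 assembly (GENCODE annotation of NCBIM37), the genes are spread over several chromosomes, and Kdr and Flt1 lie apart on chr5, at chr5:76328852-76374483 and chr5:148373180-148537587, both on the minus strand. Tek (chr4:94405980-94541667, plus strand) and Tie1 (chr4:118143796-118162666, minus strand) are on chromosome 4. Pecam1 (chr11:106515531-106611942, minus strand) and Flt4 (chr11:49422765-49466241, plus strand) are on chromosome 11. Cdh5 is at chr8:106625525-106668402 (plus strand), Emcn at chr3:137004031-137095149 (plus strand), Lyve1 at chr7:117994121-118006467 (minus strand) and Vegfa at chr17:46153942-46169326 (minus strand). Reads were counted over the exons of each gene, so a value covers all isoforms of it, and the annotation holds 14 transcripts for Vegfa and 5 for Flt1.

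Promoter sequences were available in the RefSeq table used here (GRCm38.p6, a later build than that of the expression files) for 7 of the 10 genes. Those of 4 receptors are shown, because Kdr and Flt1 bind the same ligand but parted in level with age, while Tek and Tie1 moved together. Each run gives the 250 bases before the annotated start, 5′ to 3′ on the strand of the gene: chr5:75978456-75978705 (minus strand) for Kdr, chr5:147726012-147726261 (minus strand) for Flt1, chr4:94739039-94739288 (plus strand) for Tek and chr4:118489850-118490099 (minus strand) for Tie1. Capitals mark GGAAG or its reverse complement CTTCC. These letters hold the shorter core GGAA bound by ETS factors such as Erg, Fli1 and Ets1, which are known regulators of endothelial genes.
Kdr: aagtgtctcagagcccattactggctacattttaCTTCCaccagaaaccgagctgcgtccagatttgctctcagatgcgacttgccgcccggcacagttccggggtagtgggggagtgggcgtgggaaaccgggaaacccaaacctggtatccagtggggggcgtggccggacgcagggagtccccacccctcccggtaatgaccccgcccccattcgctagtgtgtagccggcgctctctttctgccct
Flt1: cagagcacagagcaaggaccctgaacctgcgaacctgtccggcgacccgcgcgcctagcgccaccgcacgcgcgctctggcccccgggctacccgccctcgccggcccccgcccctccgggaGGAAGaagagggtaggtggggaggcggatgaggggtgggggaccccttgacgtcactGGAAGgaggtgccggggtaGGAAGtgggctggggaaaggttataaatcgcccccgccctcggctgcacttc
Tek: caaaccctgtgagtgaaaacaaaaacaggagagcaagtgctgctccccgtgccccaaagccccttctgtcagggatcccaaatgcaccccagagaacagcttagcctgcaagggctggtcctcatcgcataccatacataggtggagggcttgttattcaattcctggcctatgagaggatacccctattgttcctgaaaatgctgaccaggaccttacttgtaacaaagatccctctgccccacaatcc
Tie1: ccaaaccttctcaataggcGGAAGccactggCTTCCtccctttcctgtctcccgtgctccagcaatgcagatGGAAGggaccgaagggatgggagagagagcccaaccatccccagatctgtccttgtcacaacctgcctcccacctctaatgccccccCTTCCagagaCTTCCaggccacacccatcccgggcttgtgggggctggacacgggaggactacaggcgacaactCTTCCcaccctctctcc
The Tie1 window held 6 such matches, a number reached by 0.344% of the 32851 promoters in the table. There were 3 in the Flt1 window, which 10.7% of promoters reach, 1 in the Kdr window and 0 in the Tek window, and 64.1% of all promoters held at least 1. The Flt1 window also held TATAAA starting 31 bases before the start, letters that 12.4% of promoters hold on either strand, and the Kdr, Tek and Tie1 windows held none. The shorter GGAA and its reverse complement TTCC were not counted, and the Tek and Kdr windows hold them outside the marked letters. These matches describe the letters of the windows only.

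The samples held between 5817293 and 48314162 reads on genes, with the fewest at 4wk, so that the adult values of the weaker genes rest on few reads. Flt4 rested on 11 and 18 reads at 4wk and Lyve1 on 68 and 40, whereas Vegfa had at least 1038 reads in every sample. The 10 highest genes took 5.93% to 9.27% of all FPKM in the E14.5 and E16.5 samples, 29.2% and 31.1% at P5, and 48.1% to 61.1% in the adult samples, which lowers the FPKM of all other genes there. Median-of-ratios factors moved with this share, from 1.15 to 1.38 in the embryo to 0.617 to 0.714 in the adult. The median log2 fold change of all tested genes from embryo to adult was -0.75 on the deposited values and -0.08 after rescaling by those factors, and changes are therefore also given relative to that median. A gene was called where its log2 fold change was 1 or more in either direction and its adjusted p was below 0.1, with limma on log2(FPKM + 1) over all tested genes, so folds of low genes are understated.

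From embryo to adult, 9 of the 10 genes were called, 8 lower and 1 higher. Cdh5 and Lyve1 fell most, by limma on log2(FPKM + 1), with a pseudocount of 0.1 and by limma-voom, Vegfa rose, and Flt1 was the gene that was not called. Flt4 came after Tek and Tie1 on log2(FPKM + 1) but before them with the pseudocount of 0.1 (-2.42, against -2.28 for Tie1 and -2.17 for Tek). Of all tested genes, 43.6% were called in this comparison, 38% lower and 5.58% higher, so 8 of 10 lower calls stood above a background that was itself large. The median log2 fold change was -1.49 over the 10 genes against -0.75 over all genes. After median-of-ratios rescaling 5 of the 10 were called, Cdh5, Tek, Tie1 and Lyve1 lower and Vegfa higher, against 14.7% of all genes lower and 13.8% higher. All embryonic samples lay above all adult samples for 8 of the genes and below them for Vegfa, while 54.1% of all tested genes were separated in the first way and 6.29% in the other.

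**Figure D1:**
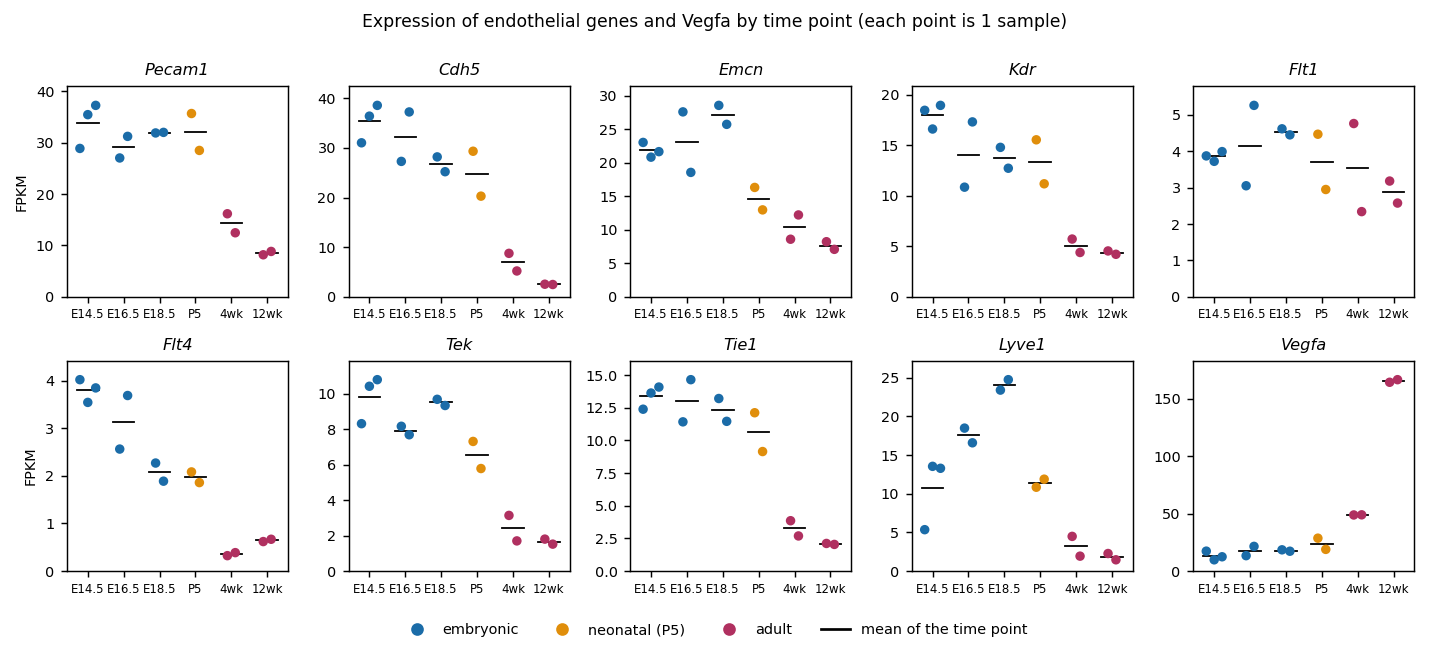
FPKM of each of the 10 genes (vertical axes, each from 0 and with its own range) at the 6 time points, with each point a sample, bars the mean of the time point, and colours for embryonic, neonatal and adult samples. The adult samples lie under all embryonic samples for 8 genes, Flt1 overlaps between ages, Lyve1 is highest at E18.5 (23.4 and 24.7 FPKM), and Vegfa is highest at 12wk (164.6 and 166.8 FPKM).

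Among the adhesion and surface proteins, Pecam1 stood at 28.9, 35.5 and 37.3 FPKM (E14.5), 27.0 and 31.3 (E16.5), 31.9 and 32.03 (E18.5), 35.7 and 28.5 (P5), 16.2 and 12.5 (4wk), and 8.18 and 8.83 (12wk). Cdh5 began at a similar level, with 31.0, 36.4 and 38.6 FPKM (E14.5), 27.3 and 37.3 (E16.5), 28.2 and 25.2 (E18.5), and 29.3 and 20.3 (P5), and went on to 8.75 and 5.20 (4wk) and 2.53 and 2.47 (12wk). Pecam1 stayed within its embryonic range at P5 and Cdh5 did so in 1 of 2 P5 samples, and all adult samples lay under all earlier ones. Pecam1 fell from a mean of 31.99 ± 3.53 FPKM (SD, n = 7) in the embryo to 11.4 ± 3.69 (SD, n = 4) in the adult, and Cdh5 from 32.01 ± 5.39 to 4.74 ± 2.96. The log2 fold change was -1.45 (SE 0.16, limma adjusted p = 2.78e-06) for Pecam1 and -2.64 (SE 0.25, limma adjusted p = 6.13e-07) for Cdh5. Relative to the median of all genes these were -0.70 and -1.89, and after rescaling Pecam1 no longer reached the fold threshold (-0.56, limma adjusted p = 0.00887) while Cdh5 did (-1.82). Emcn, the sialomucin of capillary and venous endothelium, stood at 23.0, 20.8 and 21.7 FPKM (E14.5), 27.6 and 18.6 (E16.5), 28.6 and 25.7 (E18.5), 16.3 and 12.97 (P5), 8.59 and 12.2 (4wk), and 8.22 and 7.08 (12wk). Both P5 samples were already under all embryonic samples, and the adult samples were lower again. The same held for Tek, and P5 lay under the embryo in this way for 33.8% of all tested genes. Emcn fell by 1.31 on the log2 scale (SE 0.15, limma adjusted p = 4.06e-06) from embryo to adult, by 0.56 relative to the median gene, and the rescaled value of -0.43 was under the fold threshold.

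Of the VEGF receptors, Kdr and Flt4 fell from embryo to adult and Flt1 was not called. Kdr, the main signalling receptor for Vegfa, stood at 18.45, 16.6 and 18.9 FPKM (E14.5), 10.8 and 17.3 (E16.5), 14.8 and 12.7 (E18.5), 15.5 and 11.2 (P5), 5.71 and 4.38 (4wk), and 4.53 and 4.20 (12wk). The adult samples did not overlap with any earlier sample, and the log2 fold change from embryo to adult was -1.53 (SE 0.16, limma adjusted p = 1.41e-06), or -0.78 relative to the median gene, and -0.70 after rescaling, which is under the fold threshold. Flt4, the receptor of lymphatic growth signals, stood at 4.02, 3.55 and 3.85 FPKM (E14.5), 2.56 and 3.69 (E16.5), 2.27 and 1.89 (E18.5), and 2.08 and 1.86 (P5), and at 0.32 and 0.39 (4wk) and 0.62 and 0.67 (12wk). Its adult samples were the lowest of all, and it fell by 1.44 on the log2 scale (SE 0.17, limma adjusted p = 4.69e-06). With adult values under the pseudocount of 1 that scale understates its fold, limma-voom on the reads recovered from the FPKM gave -2.48, and after rescaling -0.95 was under the fold threshold. Flt1, which binds Vegfa as a decoy, changed less, with 3.87, 3.72 and 3.99 FPKM (E14.5), 3.05 and 5.26 (E16.5), 4.62 and 4.45 (E18.5), 4.47 and 2.95 (P5), 4.76 and 2.34 (4wk), and 3.18 and 2.58 (12wk). Embryonic and adult samples of Flt1 overlapped, and its log2 fold change was -0.31 (SE 0.17, limma adjusted p = 0.122). Its direction turned to 0.44 after median-of-ratios rescaling (limma adjusted p = 0.0288). It turned to 0.24 when the total was taken without the 50 highest genes (limma adjusted p = 0.30). Without 4wk replicate 1 the deposited values gave -0.47 (limma adjusted p = 0.0182), and all of these were under the fold threshold.

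Both angiopoietin receptor genes fell together. Tek stood at 8.31, 10.4 and 10.8 FPKM (E14.5), 8.17 and 7.69 (E16.5), 9.69 and 9.34 (E18.5), 7.31 and 5.78 (P5), 3.14 and 1.70 (4wk), and 1.80 and 1.52 (12wk). Tie1 stood at 12.4, 13.6 and 14.1 FPKM (E14.5), 11.4 and 14.7 (E16.5), 13.2 and 11.5 (E18.5), 12.1 and 9.15 (P5), 3.86 and 2.69 (4wk), and 2.11 and 2.04 (12wk). For each of them all adult samples lay under all earlier samples. The log2 fold changes from embryo to adult were -1.77 (SE 0.15, limma adjusted p = 2.74e-07) for Tek and -1.95 (SE 0.15, limma adjusted p = 7.31e-08) for Tie1, and both held after rescaling, at -1.04 and -1.18. Their ratio within a sample stayed between 0.525 and 0.852 over the 13 samples, and its range in the adult (0.633 to 0.852) overlapped with that in the embryo (0.525 to 0.814).

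Lyve1 was highest just before birth and not at E14.5. It stood at 5.35, 13.5 and 13.3 FPKM (E14.5), 18.48 and 16.6 (E16.5), and 23.4 and 24.7 (E18.5), then at 10.8 and 11.9 (P5), 4.48 and 1.93 (4wk), and 2.27 and 1.46 (12wk). Every E18.5 sample was above every sample of the other time points, and E14.5 replicate 1 was lower than the other E14.5 samples. From embryo to adult Lyve1 fell by 2.26 on the log2 scale (SE 0.33, limma adjusted p = 2.81e-05), and by 1.505 after rescaling. Between E14.5 and E16.5 and between E16.5 and E18.5 its log2 differences of 0.75 and 0.44 were not called (limma adjusted p = 0.156 and 0.51).

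Vegfa rose from embryo to adult while its receptor Kdr fell, though Kdr was not called between 4wk and 12wk (-0.16, limma adjusted p = 0.696). Vegfa stood at 17.4, 9.81 and 12.5 FPKM (E14.5), 13.4 and 21.5 (E16.5), 18.51 and 17.3 (E18.5), 28.7 and 18.9 (P5), 48.9 and 49.0 (4wk), and 164.6 and 166.8 (12wk). All adult samples were above all earlier ones, and the 12wk samples stood far above the 4wk samples. The log2 fold change from embryo to adult was 2.48 (SE 0.35, limma adjusted p = 1.91e-05), 3.23 relative to the median gene and 3.40 after rescaling, and it lay at the percentile 98.7 of all tested genes. Means rose 12.5-fold from E14.5 (13.2 ± 3.83 FPKM, SD, n = 3) to 12wk (166 ± 1.60, SD, n = 2). Of the summed FPKM of the 10 genes, Vegfa made up 5.98% to 12.4% in the embryonic samples and 83.1% and 84.4% in the 12wk samples, while the sum of the other 9 went from at least 135 FPKM to 33.4 and 30.8.

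**Figure D2:**
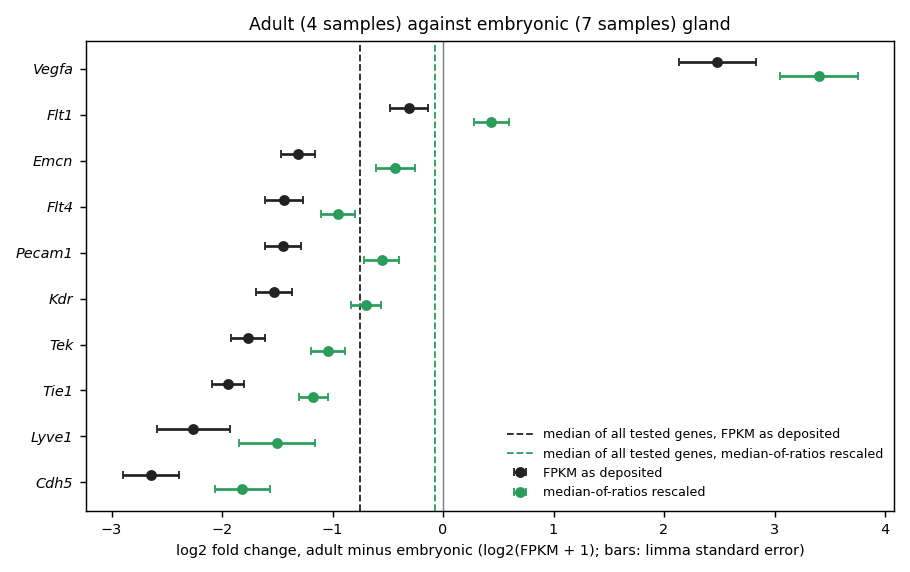
Log2 fold change (horizontal axis, adult minus embryonic, on log2(FPKM + 1)) of the 10 genes, with the limma standard error as bars, for the deposited FPKM (black) and after median-of-ratios rescaling (green). Dashed lines give the median of all tested genes, -0.75 and -0.08, and 8 genes lie to the left of their line on both scales while Vegfa (2.48 and 3.40) and Flt1 (-0.31 and 0.44) lie to the right of it.

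Between neighbouring time points, most calls among the 10 genes lay between P5 and 4wk. From embryo to P5, 0 of the 10 genes were called by limma, 2 had an unadjusted p below 0.05, and limma-voom on the reads called 0, against 12.3% of all tested genes. Between E14.5 and E16.5 limma called 0 of the 10 (0 at an unadjusted p below 0.05 and 0 by limma-voom; 5.15% of all genes), and between E16.5 and E18.5 also 0 (1 and 0; 2.94% of all genes). Emcn came closest in the embryo to P5 comparison, at -0.65 (SE 0.20, limma adjusted p = 0.0272), under the fold threshold. From E18.5 to P5, where 5.04% of all genes were called, Lyve1 was the 1 gene called, and fell by 1.02 on the log2 scale (SE 0.38, limma adjusted p = 0.0848). That call held in 14 of 27 settings, with an adjusted p between 9.08e-04 and 0.29. It was lost when either E18.5 library, either P5 library or either 12wk library was left out. Without P5 replicate 1, Lyve1 was under the fold threshold and Emcn reached it, at -1.01.

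From P5 to 4wk 8 of the 10 genes were called, against 24.3% of all tested genes. Cdh5 fell by 1.71 on the log2 scale (SE 0.23, limma adjusted p = 1.54e-04), and Lyve1 fell by 1.62, Tie1 by 1.45, Kdr by 1.24, Tek by 1.17, Flt4 by 1.13 and Pecam1 by 1.11, while Vegfa rose by 1.04 (SE 0.26, limma adjusted p = 0.0060). Emcn and Flt1 differed by -0.47 and -0.08 and were not called. The median of all genes was -0.53 in this comparison, and after rescaling, where 8.72% of all genes were called lower and 6.37% higher, 3 of the 10 were called. Against both adult ages together P5 gave 7 calls, with Flt4 (-0.99) under the fold threshold, where 23.1% of all genes were called and rescaling left 4, Cdh5, Tie1, Lyve1 and Vegfa, against 8.53% of all genes lower and 6.05% higher.

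Between 4wk and 12wk 2 of the 10 were called, against 5.15% of all tested genes, and the median of all genes was 0. Vegfa rose by 1.74 on the log2 scale (SE 0.26, limma adjusted p = 0.00189), or 3.38-fold in mean FPKM. Cdh5 fell by 1.15 (SE 0.23, limma adjusted p = 0.00956), a call that was lost without 4wk replicate 1 (-0.83, limma adjusted p = 0.0594), which left 1 of the 10 called. That library had the fewest reads and held 47.7 FPKM of the adipocyte gene Adipoq against 1.53 in 4wk replicate 2. Pecam1, Cdh5, Kdr, Flt1, Tek, Tie1 and Lyve1 were also higher in it than in replicate 2. Emcn (8.59 against 12.2) and Flt4 (0.324 against 0.387) were lower in it, and Vegfa was near equal (48.9 and 49.0). The part of adipose tissue in these values was not tested.

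Ratios of FPKM within a sample do not depend on how samples were scaled, and they showed that the endothelial genes did not keep their proportions. Pecam1 and Cdh5 were near equal in the embryo, with a ratio between 0.839 and 1.27, and the ratio was 1.22 and 1.41 (P5), 1.85 and 2.40 (4wk), and 3.23 and 3.58 (12wk). Kdr over Cdh5 lay between 0.397 and 0.594 in the embryo, at 0.529 and 0.551 (P5), 0.652 and 0.843 (4wk), and 1.70 and 1.79 (12wk). No adult ratio of either pair overlapped with the embryonic ones. Relative to Cdh5 on log2(FPKM + 1), 6 of the other 9 genes were called higher in the adult by limma, namely Vegfa, Flt1, Emcn, Flt4, Pecam1 and Kdr, and Tek (0.88), Tie1 (0.70) and Lyve1 (0.39) were not. The call of Flt4 (1.21) depended on the pseudocount of 1. It was lost with a pseudocount of 0.1 (0.49, limma adjusted p = 0.328) and with limma-voom (0.71, adjusted p = 0.19), each of which left 5. The ratio of Flt4 to Cdh5 lay between 0.0749 and 0.130 in the embryo, at 0.0710 and 0.0917 in the P5 samples, at 0.0370 and 0.0745 in the 4wk samples, and at 0.245 and 0.271 in the 12wk samples, so that the 4wk samples were below all embryonic samples and the 12wk samples above them. With the falling Cdh5 as the reference, 85.5% of all tested genes were called, and 84.2% higher, so 6 of 9 lay below the background. Over P5 and adult, 4 of the 9 were called (Vegfa, Flt1, Emcn and Flt4) against 87.7% of all genes. Here too Flt4 was lost with a pseudocount of 0.1 (0.71, limma adjusted p = 0.321) and with limma-voom (0.95, adjusted p = 0.125), while Pecam1 (1.01 and 1.16) and Kdr (1.06 and 1.33) were called under both. Tek was called with limma-voom (1.05, adjusted p = 0.0166) and not with the pseudocount of 0.1 (0.86), for 6 and 5 calls in all. Over embryo and P5 limma called 0 (0 at an unadjusted p below 0.05 and 0 by limma-voom) against 4.81%.

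With other references fewer genes were called, among these genes and over all tested genes. With Kdr as the reference, a choice made after seeing the data, 3 genes were called from embryo to adult, Cdh5 lower and Flt1 and Vegfa higher, and with Pecam1 it was also 3, again Cdh5 lower and Flt1 and Vegfa higher. Of all 14649 genes, 6421 were called with Kdr and 5929 with Pecam1 as the reference, against 12529 with Cdh5. The 3 of 9 thus lay below the background with either reference. Cdh5 fell by 1.11 relative to Kdr (SE 0.21, limma adjusted p = 3.10e-04) and by 1.20 relative to Pecam1 (SE 0.18, limma adjusted p = 3.21e-05). Flt1 rose by 1.22 relative to Kdr (SE 0.17, limma adjusted p = 2.13e-05) and by 1.14 relative to Pecam1 (SE 0.21, limma adjusted p = 1.69e-04). Flt1 over Kdr was 0.210, 0.224 and 0.211 (E14.5), and lay between 0.264 and 0.350 from E16.5 to P5 and between 0.534 and 0.834 in the adult. Vegfa over Kdr went from 0.591 to 0.941 (E14.5) to 8.56 and 11.2 (4wk) and 36.3 and 39.7 (12wk), with P5 at 1.69 and 1.85 and the later embryonic samples between 1.24 and 1.36.

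**Figure D3:**
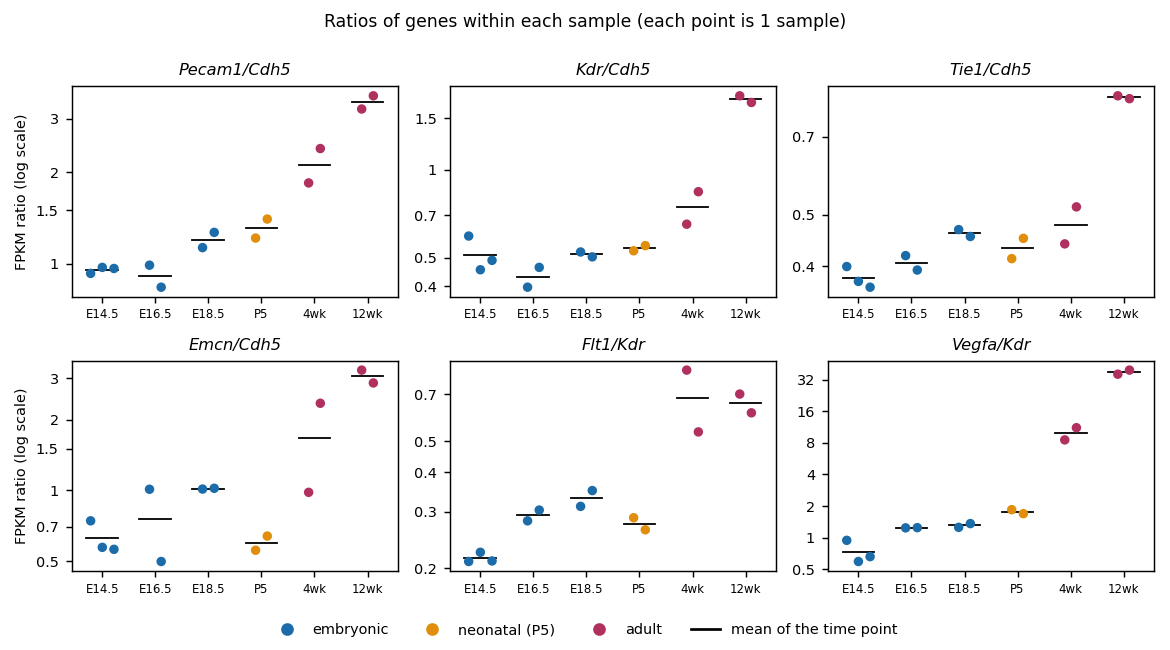
Ratio of FPKM of a pair of genes within each sample (vertical axes, logarithmic, each with its own range) at the 6 time points, with each point a sample, bars the mean of the time point, and colours for embryonic, neonatal and adult samples. The 12wk samples are the highest for all 6 pairs other than Flt1 over Kdr, where a 4wk sample is highest at 0.834, and Vegfa over Kdr spans from 0.591 to 39.7.

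The other genes of the same systems were taken from lists of 84 genes in the files, 80 of them tested. From embryo to adult 57 were called lower and 1 higher, and after rescaling 31 and 3. The shares of all tested genes given above, 38% lower and 5.58% higher, and 14.7% and 13.8% after rescaling, are the background for each list. From P5 to adult 40 were lower and 0 higher, against 20.8% and 2.31% of all genes, and from embryo to P5 15 were lower and 2 higher, against 8.14% and 4.14%. Of the VEGF family ligands and coreceptors 5 of 6 were lower (2 after rescaling), among them the neuropilins Nrp2 (-2.95) and Nrp1 (-1.87), coreceptors of VEGF, the VEGF-D gene Figf (-1.26) and the lymphatic ligand Vegfc (-1.15), and Vegfb stood at -0.75 and was not called. Of the VEGF ligands listed, Vegfa alone rose, on the deposited and on the rescaled values. Of the 3 angiopoietin pathway genes tested, Angpt2, the context-dependent antagonist of Tek, fell by 1.56 on the log2 scale, and Angpt1 (-0.45) and the phosphatase gene Ptprb (-0.05) were not called. Angpt2 over Angpt1 lay between 0.472 and 1.82 in the embryo, at 0.359 and 0.441 (P5), and between 0 and 0.283 in the adult, with Angpt2 listed at 0 in 4wk replicate 1.

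Of 20 other endothelial genes tested, 16 were called lower from embryo to adult and 0 higher, with a median log2 fold change of -1.76 (10 lower after rescaling). The largest were Apln (-2.86) and its receptor gene Aplnr (-2.86), which act in vessel growth, and the tight junction gene Cldn5 (-2.83). The von Willebrand factor gene Vwf (-0.06) and the fenestral diaphragm gene Plvap (-0.53) were not called. Of 10 endothelial transcription factors 8 were lower, led by Ets1 (-2.12), Sox7 (-2.04) and Sox18 (-1.66), while Lmo2 stood at 0.70 and was called higher after rescaling (1.59), where 2 remained lower. Of 8 arterial and venous genes all 8 were lower (6 after rescaling), led by the venous receptor gene Ephb4 (-2.40), the Notch target Hey1 (-2.34) and the arterial connexin gene Gja5 (-2.28).

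Of 6 lymphatic genes tested 3 were lower and 0 higher (2 lower after rescaling): Pdpn (-3.78), which is also expressed outside lymphatic vessels, Nr2f2 (-2.74) and Mmrn1 (-1.36). With 38% of all genes lower, a count of 3 of 6 is near the background. That count could not include Prox1, whose embryonic values were too low for a fall of 1 on log2(FPKM + 1). Prox1, the defining transcription factor of lymphatic endothelium, was low at every age, with 1.32, 0.687 and 0.796 FPKM (E14.5), 0.791 and 0.654 (P5), and 0.083, 0, 0.022 and 0.043 in the adult samples, and its difference of -0.65 was not called. The lymphatic chemokine gene Ccl21a was listed at 0 in all 13 samples. While Lyve1 peaked at E18.5, the means of Flt4, Prox1, Pdpn, Mmrn1 and Nr2f2 were highest at E14.5. The courses of Foxc2 and Stab2, the other lymphatic genes tested, are not given here. The macrophage mannose receptor gene Mrc1 stood at 28.2 and 26.5 FPKM (E18.5) and at most at 14.6 in the other samples. Pf4, a chemokine gene of platelets, stood at 53.7 and 91.8 FPKM (E18.5) and was lower in all other samples. The macrophage scavenger receptor gene Cd163 was at most at 0.15 FPKM (E14.5), at 4.18 and 3.89 (E18.5), and at 3.76 and 4.17 (P5). The 7 macrophage markers summed to 38.0 to 45.4 FPKM in the E14.5 and E16.5 samples, to 73.3 and 71.3 (E18.5), to 62.5 and 65.0 (P5), and to 39.6 to 53.5 in the adult, with none at 0 in any sample. Without Mrc1 that sum was higher in both P5 samples than in both E18.5 samples. The part of these markers in the course of Lyve1 was not tested.

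**Figure D4:**
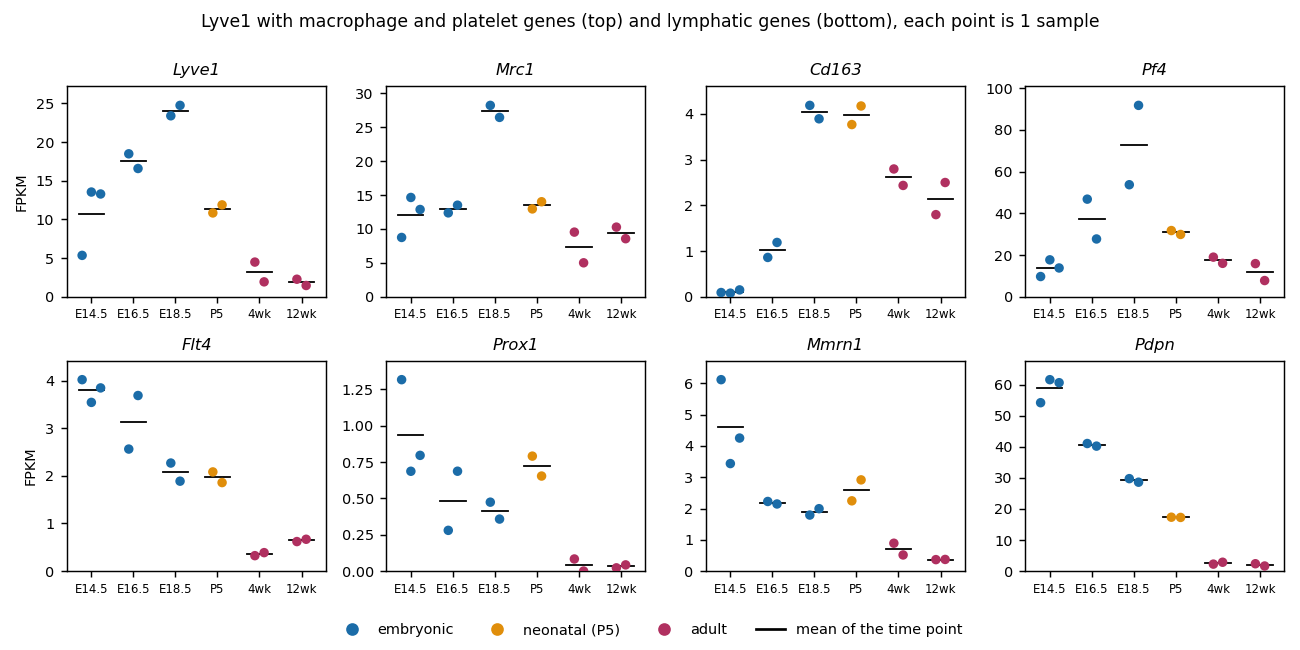
FPKM (vertical axes, each from 0 and with its own range) of Lyve1, Mrc1, Cd163 and Pf4 (top) and of Flt4, Prox1, Mmrn1 and Pdpn (bottom) at the 6 time points, with each point a sample, bars the mean of the time point, and colours for embryonic, neonatal and adult samples. Lyve1, Mrc1 and Pf4 are highest at E18.5, whereas the mean of each gene in the lower row is highest at E14.5.

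Markers of other cells moved with age as well, and their part in the endothelial values was not tested. From embryo to adult 5 of 6 fibroblast and mesenchyme markers were lower, and their sum went from between 1860 and 2667 FPKM to between 258 and 520. Of 5 secretory acinus markers 4 were higher, with sums of 38.4 to 1665 FPKM in the embryo, 16374 and 19112 (P5), and 50179 to 81579 in the adult. The sum of the 6 salivary epithelium markers, of which 0 were called by limma in either direction (1 had an unadjusted p below 0.05 and limma-voom called 0), overlapped between the stages. All 5 skeletal muscle markers were lower in the adult, with sums of up to 701 FPKM in E16.5 replicate 2. At E18.5 the sums were already 1.54 and 13.6 FPKM, overlapping with those of the adult (1.04 to 9.60). In each adult library 1 to 3 of these markers were at 0. Of 4 adipocyte markers 2 were higher, with sums of at most 28.2 FPKM in the embryo, 197 and 53.2 (P5), 83.2 and 2.74 (4wk), and 6.85 and 13.2 (12wk), and 2 or 3 of the 4 were at 0 in each library at E14.5 and E16.5. Of 4 megakaryocyte and platelet markers tested 1 was lower. The sum over all 5 markers in the files was highest at E18.5, at 57.2 and 94.3 FPKM, and Pf4 made up most of it there. Limma called 0 of 7 macrophage and 0 of 4 leukocyte markers, 4 in each list had an unadjusted p below 0.05, limma-voom called 1 higher in each, and after rescaling 4 and 2 were called higher. With both libraries highest in adipocyte markers left out, P5 replicate 1 and 4wk replicate 1, a choice made after seeing the data, the number of the 10 genes called from embryo to adult was again 9.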

How the data were processed

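RNA of whole submandibular glands was sequenced as 50 bp single-end reads. The authors deposited 1 table of FPKM values per sample, made on mm9, and the submitters' processing notes name TopHat2 2.0.13, Bowtie2 2.2.6, featureCounts and DESeq2 1.10.1. All values were used as FPKM, and no count table was used here. Groups followed the labels, with the stages of the study.

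The 10 genes and all lists were chosen with earlier results of these data known. All 10 genes were named with their values, each list by its counts with up to 3 called genes of largest change from embryo to adult and up to 2 others, and the 5 genes most like each of 3 patterns. Genes that reached 1 FPKM in any of the 13 samples were tested by limma 3.58.1 (R 4.3.3) on log2(FPKM + 1) with a variance trend, 1 fit over the stages and 1 over the 6 time points, with Benjamini-Hochberg adjustment over all 14650 genes. A further fit subtracted the log2 value of Cdh5 in each sample. No source says which samples of a group were processed apart, and p-values measure the spread between these samples only.

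Whole reads were recovered from the FPKM steps for all 20268 genes above 0, within a relative tolerance of 0.0001, and gave 5817293 to 48314162 reads per sample. Those reads were used for depth and for limma-voom as an alternative added after seeing the data. Other alternatives were a pseudocount of 0.1, other filters, median-of-ratios rescaling, a total without the 50 highest genes, no variance trend, a replicate block, the compared samples only, an adjusted p below 0.05, time points averaged by stage, and each sample left out. Scripts (Python 3.11.15, numpy 2.4.6, pandas 2.3.3, matplotlib 3.10.9) were tested on simulated data. Replicate numbers were not shown to pair the samples.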

Additional observations from a re-analysis of the deposited data

How the results depend on the processing

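The number of the 10 genes called depended mainly on scaling. Median-of-ratios rescaling gave 5 from embryo to adult, 4 from P5 to adult, 3 from P5 to 4wk and 0 from E18.5 to P5, and a total without the 50 highest genes gave 5 from P5 to 4wk and 0 from E18.5 to P5. The E18.5 to P5 count of 1 was also 0 with a pseudocount of 0.1, without a filter, at an adjusted p below 0.05 and with the replicate block, which changed no other count by over 1.5 times. Replicate numbers were not shown to pair the samples, with a mean correlation of deviations of -0.016 over 30 same-numbered pairs against 0.012 over 40 others. In groups of 2 samples the deviations mirror each other, so the other pairs are no separate baseline. Flt1 from embryo to adult reversed to 0.44 with median-of-ratios rescaling and 0.24 without the 50 highest genes. Relative to another reference than Cdh5, the embryo to adult count was 3 (Pecam1) and 3 (Kdr) and the P5 to adult count 2 and 2, and it was 7 with both 4wk libraries left out. The 4wk to 12wk count was 1 with both libraries highest in adipocyte markers left out. The Kdr reference and the settings leaving out 2 libraries were added after seeing the data. The cause of these shifts was not tested.

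With each library left out in turn, counts ran from 9 to 9 (embryo to adult), 0 to 0 (embryo to P5), 7 to 8 (P5 to adult), 0 to 0 (E14.5 to E16.5), 0 to 0 (E16.5 to E18.5), 0 to 1 (E18.5 to P5), 6 to 8 (P5 to 4wk) and 1 to 2 (4wk to 12wk, 1 without 4wk replicate 1). Relative to Cdh5 they ran from 4 to 7 (embryo to adult, 4 without either 12wk library), 0 to 0 (embryo to P5) and 3 to 6 (P5 to adult, 3 without P5 replicate 1).

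Counts over all genes moved by more than 1.5 times as follows. Rescaling took embryo to adult from 6385 to 4166 (5567 lower and 818 higher became 2147 and 2019), P5 to adult from 3385 to 2136 and P5 to 4wk from 3556 to 2211. A pseudocount of 0.1 gave 5320 (P5 to adult), 1183 from 755 (E14.5 to E16.5), 1163 from 738 (E18.5 to P5), 5767 (P5 to 4wk) and 1658 from 755 (4wk to 12wk). Limma-voom gave 2938 from 1798 (embryo to P5), 5599 (P5 to adult), 1439 (E14.5 to E16.5), 934 from 430 (E16.5 to E18.5), 1513 (E18.5 to P5) and 5647 (P5 to 4wk). Embryo to P5 fell to 870 without P5 replicate 1, 1049 without P5 replicate 2 and 1013 without both adipocyte-high libraries, and 4wk to 12wk was 1472 without 4wk replicate 2. Relative to Cdh5, the references Pecam1 and Kdr gave 5929 and 6421 in place of 12529 (embryo to adult) and 6519 and 5133 in place of 12842 (P5 to adult), and embryo to P5 ran from 59 (without P5 replicate 1) to 1750 (limma-voom) around 704. Few reads limit Flt4 and Lyve1 at 4wk most.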

Other observations

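Genes of the vessel wall and of the hypoxia pathway, which controls Vegfa in many tissues, moved as follows. Of 8 pericyte and smooth muscle genes 6 were lower from embryo to adult and 1 was higher (5 and 1 after rescaling), led by Myh11 (3.55), the myosin of contractile smooth muscle, Des (-2.90) and the pericyte channel subunit gene Abcc9 (-2.69). Myh11 stood at 1.31, 1.33 and 1.77 FPKM at E14.5, 29.7 and 33.2 at P5, and 69.9 and 63.4 at 12wk. The pericyte gene Rgs5 (-0.06) was not called, and stood highest at P5, at 29.3 and 24.4 FPKM. Myh11 is also a gene of myoepithelial and other contractile cells, and which cells gave its reads was not tested.

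Of 9 hypoxia pathway regulators 4 were lower and 0 higher (1 and 1 after rescaling), near the background of 38% of all genes lower (14.7% after rescaling). Hif3a fell by 2.84 on the log2 scale, from between 5.35 and 7.75 FPKM in the embryonic samples to 0.339 and 0.287 at P5 and to at most 0.054 in the adult. Vhl (-1.38) and Arnt (-1.32) were lower too, and Epas1, the endothelial hypoxia factor, stood at 0.62 and was not called, with 1.49 and a call after rescaling. Of 10 hypoxia targets other than Vegfa 6 were lower and 0 higher (2 lower after rescaling), led by P4ha1 (-2.55), Ankrd37 (-1.82) and Ldha (-1.68), while Adm (0.20) and Bnip3 (-0.23) were not called. None of the 10 was called in the direction of Vegfa, on the deposited or the rescaled values.

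Over the 13 samples, which share their age and scaling, the genes most like the mean Z-score of the 9 endothelial genes were Cd93, Mdm1, Sdpr, Rcsd1 and Ehd2, each with a Pearson r of 0.99 on log2(FPKM + 1). Rescaling gave Cd93 (0.98), Sdpr (0.97), Mdm1 (0.97), Mtap7d3 (0.96) and Mki67 (0.96). Among the genes themselves Tie1 was closest to that mean (0.99) and Flt1 least close (0.66, and -0.41 after rescaling). Most like Vegfa were Mkx, Camk2d, Sec14l4, Kcnt1 and Zfp872, all with an r of 0.98, and after rescaling Zfp872, Sec14l4, Slc22a23, Mkx and Trpc4ap. Most like Lyve1 were Trim21 (0.98), Aqp1 (0.98), Tmem123 (0.97), Pdlim2 (0.97) and Sesn1 (0.97), and after rescaling Aqp1 (0.96), Il1rl1 (0.96), Cma1 (0.95), Nuak2 (0.95) and Sesn1 (0.94). These correlations are descriptions and carry no test.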
